A study of Mus musculus with 2 samples.

Results

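Colitis-associated colon tumors (CACs) of mice contained 1869 cells that the authors annotated as B cells, and 1038 of them carried little immunoglobulin mRNA. These 1038 low-immunoglobulin B cells, out of 38883 cells in all, were chosen by their summed immunoglobulin UMIs (unique molecular identifiers, each a captured mRNA molecule), as the annotated B cells in which 11 genes (*Igkc*, *Igha*, *Ighm*, *Ighg1*, *Ighg2b*, *Ighg2c*, *Ighg3*, *Iglc1*, *Iglc2*, *Iglc3* and *Jchain*) together gave under 1000 of every 10000 UMIs, which is 10% of the UMIs of the cell. The other 831 annotated B cells lay above that limit and are called immunoglobulin-rich B cells here. Immunoglobulin levels therefore chose the cells and are given as a description, and since the annotation itself came from clustering on variable genes of these cells, comparisons with other cell types are descriptions as well.

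Tumors came from female mice on a C57Bl/6 background of the genotypes Mir34a_F/F, with both *Mir34a* alleles flanked by loxP sites, and Mir34a_Mye_KO, which carried in addition LysM-Cre for deletion of *Mir34a* in myeloid cells. All mice, aged 6 to 10 weeks, received azoxymethane (AOM, a carcinogen, 10 mg/kg) and 3 periods of dextran sodium sulfate (DSS, which injures the colon lining) of 5 days each, at 2.5% in cycles 1 and 2 and 2% in cycle 3, and were killed on day 110. For each genotype, 6 to 8 tumors of 3 mice were pooled and 30000 cells were loaded for 1 library of 3′ single-cell RNA sequencing. LysM-Cre is expressed from the myeloid *Lyz2* locus, so B cells were not its target and carried the floxed allele in both groups. With 1 library per genotype, differences between the libraries have no replicate check, no p-value was computed, and the intervals below (95%, exact) cover counting error only. Wherever a pair of values is given, the value of the library labelled Mir34a_F/F stands before that of the library labelled Mir34a_Mye_KO, and the level of an mRNA is its mean over cells in UMIs per 10000.

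B cells read antigen through a receptor made of a surface immunoglobulin and the signal chains Cd79a and Cd79b. Naive B cells carry receptors of the IgM and IgD classes and keep the B cell program of the transcription factors Pax5 and Ebf1, present antigen on MHC class II and travel between follicles by chemokine receptors. After activation, some become plasma cells, which shut off *Pax5*, turn on *Xbp1* and *Prdm1* and fill with immunoglobulin mRNA, in the colon mostly IgA with the joining chain encoded by *Jchain*.

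Low-immunoglobulin B cells made up 664 of 943 annotated B cells in the library labelled Mir34a_F/F (70.4%, interval 67.4 to 73.3) and 374 of 926 in the library labelled Mir34a_Mye_KO (40.4%, 37.2 to 43.6). Of all cells they were 3.27% and 2.01%, while the immunoglobulin-rich B cells were 1.37% and 2.97%. The lower share of low-immunoglobulin cells thus came with a higher share of immunoglobulin-rich cells, and the order was kept among non-epithelial cells, of which the low-immunoglobulin B cells were 7.63% and 4.30%. The immunoglobulin UMIs of the 2 groups lay far apart, with few cells near the limit. The median was 52.5 and 92.3 per 10000 in the low-immunoglobulin cells, with 95th percentiles of 115 and 321, against 4638 and 4725 in the immunoglobulin-rich cells. Between 500 and 1000 per 10000 there were 8 and 10 cells, and between 1000 and 2000 there were 18 and 27. The cells nearest the limit held 966 and 987 inside it and 1078 and 1094 outside it in the library labelled Mir34a_F/F, and 909 and 951 inside and 1073 and 1076 outside in the other library.

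**Figure D1:**
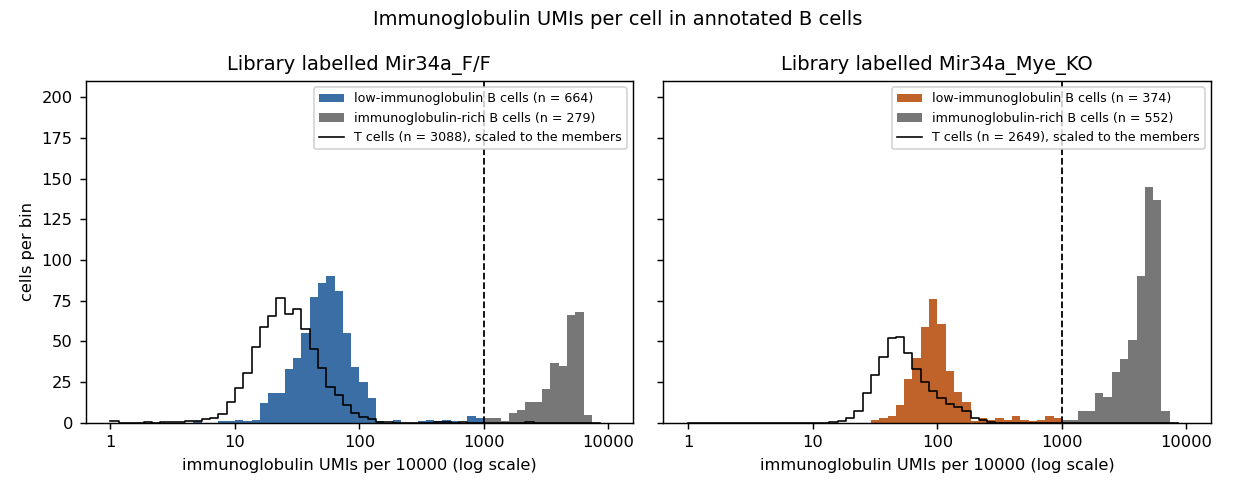
Histograms of annotated B cells by their immunoglobulin UMIs per 10000 (log scale, horizontal axis; cells per bin on the vertical axis) in each library, with the limit of 1000 as a dashed line and T cells, scaled to the number of low-immunoglobulin cells, as an outline. Low-immunoglobulin cells (medians 52.5 and 92.3) lie above T cells (25.5 and 51.2) but overlap them, and both lie far below immunoglobulin-rich cells.

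Depth differed between the libraries and moves the share of cells in which any mRNA is seen. The low-immunoglobulin B cells had a median of 2980 UMIs (761 to 19708) and 6978 UMIs (724 to 24665), and 1502 and 2530.5 expressed genes. When cells were thinned to 1000 UMIs each, which left out 12 and 2 shallower cells, the number of genes was 660 and 646.5, against 677 and 661 in T cells and 398 and 383.5 in immunoglobulin-rich cells. Mitochondrial UMIs took a median of 2.10% and 3.97%, and 10 and 20 of the cells held at least 25%, the limit that the methods of the study state. The libraries shared 96 barcode sequences, and 3 low-immunoglobulin B cells carried one of them.

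The markers of the B cell label were present. *Cd79a*, *Ms4a1* (CD20) and *Pax5* had a level of 5.49 and 7.23, 1.89 and 3.12, and 2.64 and 3.96 in the low-immunoglobulin B cells, and of 0.0754 and 0.0687, 0.0460 and 0.0372, and 0.0323 and 0.0310 in T cells. At least 1 UMI of the 3 genes was seen in 573 of 664 (86.3%, 83.4 to 88.8) and 337 of 374 cells (90.1%, 86.6 to 92.9), against 4.27% and 5.66% of T cells, which should lack them and had median depths of 3548 and 8043 UMIs. At 1000 UMIs per cell the shares were 59.97% and 69.6%, against 1.5% and 1.32% of T cells. Immunoglobulin-rich cells also carried *Cd79a* (85.7% and 93.3% of cells), while *Pax5* was seen in 1.43% and 1.45% of them, as in T cells (1.04% and 1.32%), and in 50.8% and 80.5% of the low-immunoglobulin cells.

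Immunoglobulin mRNAs in the low-immunoglobulin cells differed in how far they stood above their level in T cells. *Ighm*, the heavy chain of IgM, had a level of 6.43 and 9.43, against 0.357 and 0.506 in T cells and 0.460 and 3.17 in immunoglobulin-rich cells. *Ighd*, the heavy chain of IgD, was not used to choose the cells and had a level of 1.65 (362 UMIs, 326 to 401) and 3.12 (855 UMIs, 799 to 914), against 0.0181 and 0.0232 in T cells and 0.00595 and 0.00248 in immunoglobulin-rich cells. *Ighd* was seen in 33.6% and 64.2% of the cells, in 14.7% and 18.8% at 1000 UMIs, and in 0.939% and 1.32% of T cells. In contrast, *Igha* was seen in 97.4% and 100% of the low-immunoglobulin cells but also in 97.5% and 99.96% of T cells, at levels of 20.9 and 41.6 against 14.2 and 26.1. *Jchain* had a level of 2.31 and 6.91 against 1.93 and 4.68 in T cells, and at 1000 UMIs was seen in 18.4% and 38.4%, against 16.6% and 35.1% of T cells. Both genes belong to the rule that chose the cells, and neither share was read as expression or as its absence. *Igkc*, the kappa light chain, had levels of 33.0 and 57.4 against 14.0 and 29.2 in T cells.

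Genes at least 2-fold above every one of the 10 other annotated cell types in both libraries numbered 79 of 12229 with a level of at least 0.1 (0.646%), 2 of them, *Ighm* and *Iglc1*, from the rule. Of the 61 genes in 5 lists of the B cell program (receptor complex and coreceptors, signalling, transcription factors, antigen presentation, homing and survival), 22 were among the 79. Of the 61, 47 were also at least 2-fold above the immunoglobulin-rich cells in both libraries. That comparison starts from a high base, since 3297 of 8388 genes (39.3%) were at least 2-fold higher in the low-immunoglobulin cells and 331 (3.95%) at least 2-fold lower. Immunoglobulin takes a median of 46.4% and 47.2% of the UMIs of the immunoglobulin-rich cells, and when levels were taken per 10000 UMIs outside immunoglobulin, mitochondrial and rRNA-like genes, the median log2 ratio of all genes moved from 0.97 and 0.98 to 0.16 and 0.19 and the counts to 790 higher and 803 lower. Log2 ratios between the 2 groups of B cells are therefore to be read against 0.97 and 0.98.

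**Figure D2:**
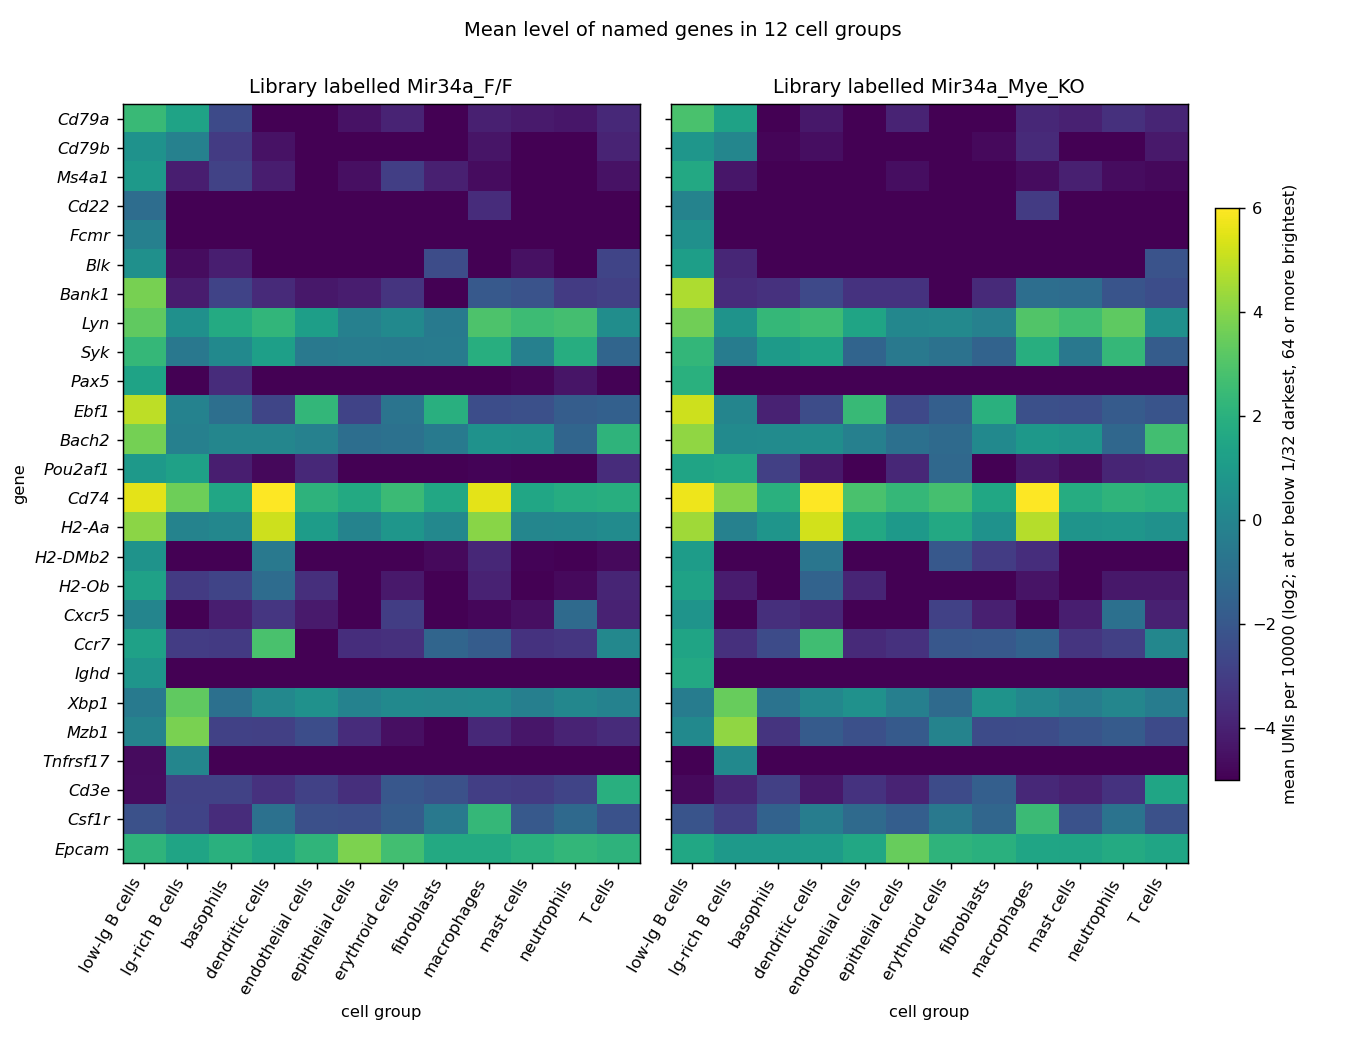
Mean level (log2 of UMIs per 10000, color) of 26 genes (rows) in low-immunoglobulin B cells, immunoglobulin-rich B cells and the 10 other annotated cell types (columns) in each library, to be read along a row. *Pax5*, *Fcmr* and *Ighd* are highest in the low-immunoglobulin B cells, and *Cd74* and *H2-Aa* are also high in dendritic cells and macrophages.

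Of the 13 genes of the receptor complex and its coreceptors, 9 stood at least 2-fold above every other cell type. *Cd79a* was 31.6-fold above basophils, the next highest type, in the library labelled Mir34a_F/F and at least 32.7-fold above every other type in the other. *Cd79b*, its partner, had a level of 1.54 and 1.74. *Ms4a1* was 13.3-fold above basophils in the library labelled Mir34a_F/F and at least 14.1-fold above every other type in the other. The margins of *Cd79a* and *Ms4a1* depend on small groups. Basophils were 48 cells in the library labelled Mir34a_F/F, where 3 UMIs over the group equal 0.154 per 10000. The bounds in the other library come from 30 erythroid cells, where 3 UMIs equal 0.221. *Cr2* (CD21, complement receptor 2) had 0.519 and 1.32, and *Fcer2a* (CD23) had 0.738 and 1.66. *Fcmr*, the Fc receptor for IgM, had 0.868 and 1.44, against 0.00602 and 0.00969 in T cells. The inhibitory receptor *Cd22* had 0.476 and 0.933. Shared with other types were *Cd37* (1.94 and 2.53, 1.63- and 3.43-fold above basophils), *Cd72*, whose level of 0.50 and 0.798 was 1.04- and 1.12-fold that of macrophages, *Cd40*, at 0.340 and 0.450 of the level of dendritic cells, and *Cd81*, at 0.410 and 0.408 of the level of endothelial cells. The median log2 ratio of the list over the immunoglobulin-rich cells was 4.05 and 5.24.

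Signalling genes were B cell restricted in part. *Bank1*, a scaffold for receptor signalling, ranked first by its margin over other cell types, with a level of 13.2 (3046 UMIs, 2939 to 3156) and 24.9 (6927 UMIs, 6765 to 7092), 50.5- and 50.9-fold above macrophages. The Src-family kinase *Blk* had 1.42 and 2.27. *Ralgps2*, an exchange factor for Ral GTPases, had 2.05 and 4.66, 2.02- and 4.81-fold above epithelial cells. These 3 were the list's genes above every other type, of 12. The kinases *Lyn* (9.95 and 12.3), *Syk* (4.99 and 4.80) and *Btk* (1.35 and 1.29) were between 0.949 and 1.60 times the level of the next or higher type, which was macrophages, neutrophils or mast cells. *Pik3ap1* and *Prkcb* were below neutrophils and mast cells, respectively. Over the immunoglobulin-rich cells the list had a median log2 ratio of 2.47 and 2.65, and 7 of the 12 were at least 2-fold higher in both libraries, beside 39.3% of all genes. The other 5 were *Blnk* (0.83 and 0.79), *Plcg2*, *Ptpn6*, *Ralgps2* and *Dok3*.

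Of 13 transcription factors, 6 stood above every other type: *Pax5*, *Ebf1*, *Pou2af1*, *Bach2*, *Foxp1* and *Mef2c*. *Ebf1*, which acts with Pax5, had a level of 30.0 and 35.6, 6.25- and 6.75-fold above endothelial cells, and of 0.905 and 1.0 in immunoglobulin-rich cells. *Bach2*, which holds back the plasma cell program, had 13.2 and 17.9, 2.96- and 2.81-fold above T cells. The coactivator *Pou2af1* was common to both groups of B cells, at 1.87 and 2.66 against 2.49 and 3.02. *Mef2c* was likewise shared, at 9.14 and 16.5 against 6.57 and 8.51. *Pax5* showed the opposite pattern, with 0.0130 and 0.00654 in immunoglobulin-rich cells, which rests on 5 and 8 UMIs there. *Ets1* and *Ikzf3* were at the level of T cells (5.85 and 7.09 against 6.03 and 7.50, and 2.52 and 3.79 against 2.46 and 3.33).

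Antigen presentation was the property that the low-immunoglobulin B cells shared with dendritic cells. *Cd74*, the invariant chain, had a level of 46.3 and 52.4, 0.563 and 0.621 of that of dendritic cells, and *H2-Aa*, a class II alpha chain, had 17.1 and 21.9, 0.475 and 0.580 of dendritic cells. *H2-Ab1* (12.5 and 14.9) and *H2-Eb1* (12.3 and 13.8) were likewise below dendritic cells. Of the peptide-editing chains, *H2-DMb2* and *H2-Ob* ran the other way. They were the only 2 of the 11 genes at least 2-fold above every other type in both libraries, so *H2-DMa* and *H2-Oa* were not. *H2-DMb2* had 1.56 and 2.10, 2.27- and 3.41-fold above dendritic cells, and *H2-Ob*, part of H2-O, which restrains H2-DM, had 2.42 and 2.52, 5.27- and 7.03-fold above them. In all, 10 of the 11 genes were at least 2-fold above the immunoglobulin-rich cells, with a median of 4.16 and 4.6, *Cd80* being the exception. *Ciita*, the master activator of class II genes, had 0.340 and 0.696 against 0.0148 and 0.0127 in the immunoglobulin-rich cells.

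The promoters of 7 of these 11 genes were matched by symbol in the RefSeq promoter table of the GRCm38.p6 build. A chromosome was left out of that table, so genes on it could not be matched, and counts over all promoters leave it out too. Those counts are of promoters, while counts for the lists are of genes. Since class II genes were high together here, the 130 bases before the start are shown for the 3 that hold the letters CTGATTGG, the Y box of class II promoters, in capitals. The start sites belong to *H2-Aa* (chr17:34287824-34287953, minus strand), *H2-Eb1* (chr17:34305737-34305866, plus strand) and *H2-Oa* (chr17:34092249-34092378, plus strand), and each sequence is given 5′ to 3′ in the direction of its gene.
H2-Aa: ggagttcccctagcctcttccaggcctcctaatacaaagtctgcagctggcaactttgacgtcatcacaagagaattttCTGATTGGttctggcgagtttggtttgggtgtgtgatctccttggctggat
H2-Eb1: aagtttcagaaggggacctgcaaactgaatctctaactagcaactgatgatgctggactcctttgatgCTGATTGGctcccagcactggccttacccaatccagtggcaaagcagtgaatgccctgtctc
H2-Oa: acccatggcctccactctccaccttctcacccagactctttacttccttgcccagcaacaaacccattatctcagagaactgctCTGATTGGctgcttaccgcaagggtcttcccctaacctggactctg
The box began 51, 62 and 46 bases before the start, respectively. Searched on both strands within 130 bases, CTGATTGG was in 973 of 32851 promoters (2.96%), in 3 of the 7 matched here and in 3 of the 56 matched among the 79 genes above every other type (*Cab39l*, *H2-Eb2* and *Scai*). Its core GATTGG, which every CTGATTGG contains, was in 10.1% of all promoters and in 5 of the 7, also in *H2-DMb2* and *H2-Ob*. TCCCNNGGGA, a pattern bound by EBF factors, was in 0.390% of all promoters within 130 bases and in that of *Cd22* (chr7:30879029-30879158, minus strand), shown with the match in capitals.
Cd22: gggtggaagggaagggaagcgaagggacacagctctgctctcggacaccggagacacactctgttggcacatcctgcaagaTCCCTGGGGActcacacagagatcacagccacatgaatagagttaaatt
ATGCAAAT, the octamer bound by POU factors with Pou2af1, was in 0.868% of all promoters and, among the 79 genes, in those of *Ccr6* and *Vpreb3*. A match of letters is a description of the sequence, and no binding was measured.

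Most genes of homing and survival were higher in the low-immunoglobulin cells than in the immunoglobulin-rich ones. Of the 12, 9 were at least 2-fold higher in both libraries, beside 39.3% of all genes, and 1 was at least 2-fold lower. With levels taken outside immunoglobulin, mitochondrial and rRNA-like genes, 8 of the 12 were higher and 1 lower, beside 790 of 9279 genes higher. *Cxcr5*, the receptor that leads to follicles, had a level of 0.996 and 1.64 against 0.00723 and 0.00676. *Ccr7*, the lymph node receptor, had 2.44 and 2.71, below dendritic cells, and *Ccr6* had 0.761 and 1.22, 2.21- and 3.14-fold above T cells. *Klf2*, *S1pr1*, *Gpr183*, *Cxcr4* and *Cd55* were also over 2-fold above the immunoglobulin-rich cells. *Tnfrsf13b* (TACI) alone of the 12 was lower, at 0.239 and 0.477 against 1.16 and 1.495. *Tnfrsf13c*, the BAFF receptor, had 0.191 and 0.515 against 0.137 and 0.195.

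The plasma cell program made the reverse picture. Of its 16 genes outside immunoglobulin, 15 were at least 2-fold lower in the low-immunoglobulin cells in both libraries, with a median log2 ratio of -3.11 and -3.14. *Xbp1* had a level of 0.707 and 0.757 against 10.1 and 11.01, and *Mzb1*, an endoplasmic reticulum chaperone of immunoglobulin, had 0.939 and 1.15 against 13.8 and 17.8. *Tnfrsf17* (BCMA), the plasma cell survival receptor, rested on 10 and 4 UMIs in the low-immunoglobulin cells, against 452 and 2084. *Irf4* did not differ by 2-fold (0.837 and 1.52 against 0.898 and 1.25), and *Eaf2*, although lower than in the immunoglobulin-rich cells, was above every other type. The 8 genes with the widest margins for the immunoglobulin-rich cells were *Slpi* (0.862 and 0.501 against 37.6 and 31.9), *Ly6c2* (0.0627 and 0.0507 against 2.49 and 3.10), *Prg2*, *Tnfrsf17*, *Cacna1s*, *Ccr10*, *Mzb1* and *Xbp1*. Among the 8 with the widest margins for the low-immunoglobulin cells were *Bank1*, *Pax5*, *Gm31243* (3.46 and 3.06 against 0.0191 and 0.00454), the kinase gene *Lrrk2* (2.51 and 3.19 against 0.0268 and 0.0165), *H2-DMb2* and the nuclear factor *Aff3* (6.73 and 10.6 against 0.119 and 0.0945).

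**Figure D3:**
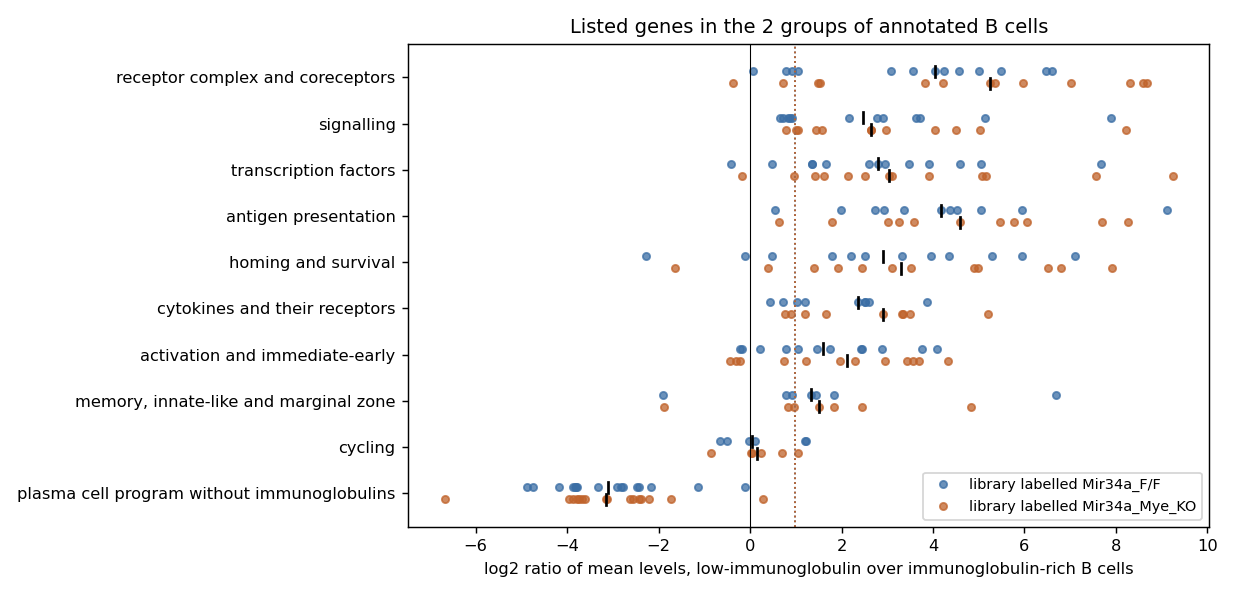
Log2 ratio of mean levels, low-immunoglobulin over immunoglobulin-rich B cells (horizontal axis), for the genes of 10 lists (rows); each point is a gene in 1 library, black bars are list medians and dotted lines the medians of all genes tested (0.97 and 0.98). The 5 B cell lists have medians between 2.47 and 5.24, the plasma cell program -3.11 and -3.14.

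Of the genes that mark further states of B cells, those of the germinal centre were sparse. None of 8 germinal centre genes, 6 of which passed the level limit, was above every other type. At least 2 of the 8 were seen in 2.11% and 8.56% of low-immunoglobulin cells, beside 5.67% and 15.7% of T cells, which express some of these genes too (*Fas* at 0.561 and 0.524, *Bcl6* at 0.391 and 0.509) and so give no background level. In the deeper immunoglobulin-rich cells the shares were 11.5% and 25.9%. At 1000 UMIs they were 0.307% and 0.269% of low-immunoglobulin cells, 0.799% and 0.492% of T cells and 0% of immunoglobulin-rich cells in both libraries. At least 2 of 12 cycling genes were seen in 32.5% and 42.2%, and in 4.91% and 3.23% at 1000 UMIs, against 39.5% and 59.9%, and 7.79% and 7.27%, of T cells. Among cytokines and their receptors, 7 of the 9 that could be compared were over 2-fold above the immunoglobulin-rich cells, beside 39.3% of all genes, with *Il21r* (1.01 and 1.71), *Ltb* (0.626 and 1.08), *Tgfb1* (2.26 and 2.31) and *Il4ra* (0.519 and 0.769) at or below the level of T cells or macrophages. Among activation and immediate-early genes, 8 of 12 were over 2-fold above the immunoglobulin-rich cells, among them *Nfkbid* (1.57 and 2.29), *Egr3* (0.763 and 1.25), *Nr4a1* (3.64 and 4.40) and *Cd83* (4.34 and 9.52). Of 12 genes of memory, innate-like and marginal zone B cells, 7 could be compared with the immunoglobulin-rich cells, 4 of them (*Nt5e*, *Pdcd1lg2*, *Itgax* and *Dtx1*) were over 2-fold higher and *Bhlhe41* was over 2-fold lower. Per 10000 UMIs outside immunoglobulin, mitochondrial and rRNA-like genes, where 790 of 9279 genes were over 2-fold higher, these counts fell to 5 of 11 cytokines and receptors, 5 of 12 activation and immediate-early genes and 2 of 8 memory genes, with 1 gene of each list over 2-fold lower. Of 9 interferon response genes in the table, 3 could be compared and none differed by 2-fold in both libraries. Outside the lists, *Dipk1a* (2.19 and 3.41), *Dmxl1* (5.51 and 9.17) and *Slc9a7* (1.79 and 2.07), the last a sodium/proton exchanger, stood at least 5.48-fold above every other type.

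The low-immunoglobulin cells varied among themselves. Clustering, whose settings were chosen after the data were seen, gave 5 clusters, named here by number and leading genes, since the clusters were made from these genes. Cells of both libraries were clustered together without batch correction, so a cluster can follow differences between the libraries. Leading genes, and cluster levels given as a single value, are over both libraries together, although the libraries differ in their shares of the clusters. At a resolution of 1.0, cluster 1 split mainly into 208 and 167 cells, cluster 2 into 190 and 121, and cluster 3 into 95 and 34. Cluster 1 (412 cells, 386 and 26 by library) was led by *Gm8369*, *Stmn1*, *Mt3* and *Snhg8* and had the fewest UMIs (median 2610). Its leading genes *Mt3*, *Snhg9* and *Gm11808* were also among those with the largest ratios toward the library labelled Mir34a_F/F, given below. Cell state and library cannot be told apart for this cluster. Cluster 2 (323 cells, 118 and 205) was led by *Dmxl1*, *Heg1*, *Gpr137c* and *Satb1*, with levels of 12.8 for *Dmxl1* and 30.2 for *Satb1*, and had *Ighd* at 3.57 and *Bank1* at 28.2. Cluster 4 (103 cells, 69 and 34) stood apart by *Cd80*, *Ighg2b*, *Cacna1d*, *Nt5e* (CD73) and *Runx3*. Its *Ighd* level was 0.0601, against 1.85 in cluster 1 and 3.57 in cluster 2, its *Ighm* level was 1.32 against 7.29 and 10.6, and *Fcer2a* (0.289) was low there too. *Ccr6* (2.05, against 0.455 and 1.30 in clusters 1 and 2) and *Cd80* (1.33, against 0.101 and 0.0953) were high there, while *Cd86* (10.1) was close to cluster 2 (9.51), and the IgG chain *Ighg2b* had 2.47 and *Ighg1* 1.63. Cluster 5 (69 cells, 12 and 57) was led by the heat shock genes *Hspa1a*, *Hspa1b* and *Hsph1* (16.4, 24.2 and 9.89, against 0.483, 0.562 and 0.605 in cluster 2) and also had *Cr2* (3.38), *Klf2* (10.7), *March1* and *Bcl11a*. Cluster 3 (131 cells, 79 and 52) was led by *Creb3l2*, *Adgrl2*, *Sgpp2*, *Kcnn4* and *Txndc5*. It had the highest mitochondrial share (median 10.99%), the lowest share with a label marker (64.9%, against 84.7% to 100% in the others), an *Igha* level of 91.4 against 18.1 to 23.1, and a summed level of 5.19 for the 7 plasma cell markers other than *Jchain* and 45.8 for the 7 epithelial markers, against 2.38 and 23.9 in the other low-immunoglobulin cells. Its summed level of the 7 B cell markers was 17.4, against 51.5 in the others and 4.57 and 4.71 in the immunoglobulin-rich cells.

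**Figure D4:**
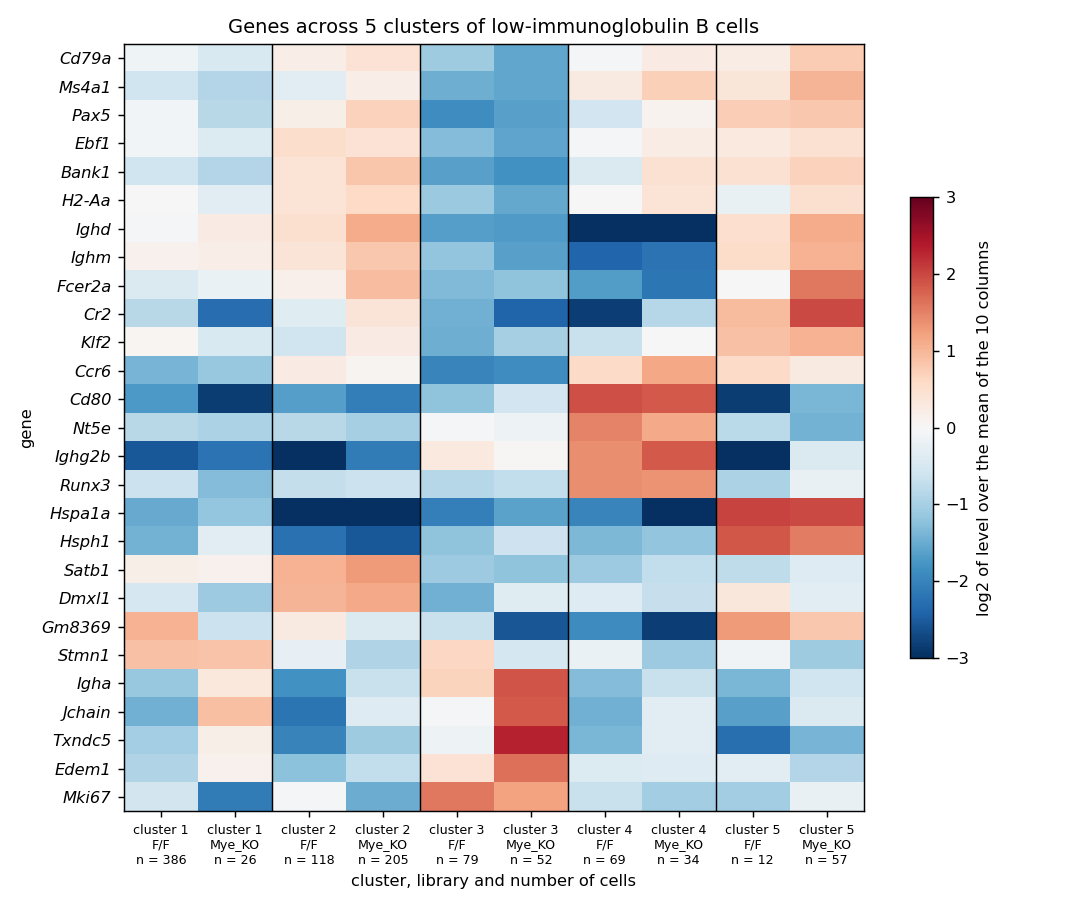
Level of 27 genes (rows) in the 5 clusters of low-immunoglobulin B cells, each split by library (columns, with the number of cells), as log2 of the level over the mean of the 10 columns (color, levels at or past 3 at the end of the scale). Cluster 4 is low in *Ighd* and *Ighm* and high in *Cd80*, *Nt5e*, *Ighg2b* and *Runx3* in both libraries, cluster 5 high in *Hspa1a* and *Hsph1*, and cluster 3 low in B cell genes.

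Cell by cell, IgD went with IgM and with *Fcer2a*. Among cells with an *Ighd* UMI, 86.5% and 98.8% also had *Ighm*, against 56.2% and 39.6% of those without. *Fcer2a* was seen in 26.9% and 65.0% against 13.4% and 24.6%. The activation gene *Cd80* went with less IgD, as *Ighd* was seen in 10.6% and 40.0% of cells with *Cd80* and in 35.3% and 67.1% of those without. Detection of any gene rises with the depth of a cell, and these shares are not corrected for it. Cells without any of the 3 label markers, 91 and 37, were shallower (median 2048 and 2586 UMIs, against 3126 and 7264). Their *Igha* level was 63.4 and 137, against 14.1 and 31.1 in cells with a marker, and *Txndc5* had 1.02 and 5.02 against 0.368 and 0.668. In the library labelled Mir34a_Mye_KO they had 12.5% mitochondrial UMIs (median), against 3.8%, and *Cd74* at 9.45 against 57.2, while 22 of the 37 had at least 1 other of the 7 B cell markers. In the library labelled Mir34a_F/F, 79 of the 91 had such a marker, the mitochondrial median was 2.4% against 2.04%, and *Cd74* was at 30.9 against 48.8.

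Transcripts of other cell types were measured as the summed level of their markers. The 7 epithelial markers together had a level of 31.9 and 17.2, against 31.2 and 17.2 in T cells and 85.1 and 59.6 in epithelial cells. The 8 macrophage markers had 2.49 and 2.47, against 2.61 and 2.31 in T cells and 44.4 and 51.6 in macrophages. The 9 T cell markers had 0.579 and 0.519, against 20.6 and 19.9 in T cells, and 6 and 3 cells held at least 3 UMIs of them. *Cd3e* was seen in 1.51% and 2.14% of the cells, against 62.3% and 69.9% of T cells. The 5 neutrophil markers had 7.64 and 4.93, against 10.4 and 6.89 in T cells. The 5 mast cell markers had 7.09 and 5.86, against 7.28 and 7.83. At least 3 UMIs of the neutrophil list were seen in 31.0% and 52.7% of the cells, and of the mast cell list in 25.5% and 62.6%. The 4 endothelial markers had 0.841 and 1.59, against 1.52 and 1.89 in T cells. The single markers *Cd209a*, *Cox6a2*, *Kdr* and *Ncr1* were at 0 in both libraries, while other genes of their lists were seen. The 7 plasma cell markers outside the rule (without *Jchain*, which helped to choose the cells) had 2.65 and 2.88, against 2.09 and 1.88 in T cells and 31.2 and 36.8 in the immunoglobulin-rich cells. Dendritic cell markers had 0.473 and 0.252, against 0.434 and 0.623 in T cells, and plasmacytoid dendritic cell markers had 0.722 and 0.861, against 3.21 and 4.08.

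Between the libraries, most genes of the B cell program had the higher level in the library labelled Mir34a_Mye_KO. Ratios here are log2 of the level in the library labelled Mir34a_Mye_KO over that in the library labelled Mir34a_F/F, given beside the ratio in T cells. Of 9209 genes with a level of at least 0.1 in either library and at least 10 UMIs, 138 (1.5%) were at least 2-fold higher and 451 (4.9%) at least 2-fold lower in the library labelled Mir34a_Mye_KO, and 3822 had a ratio above 0. The median of all genes was -0.11, and 0.02 per 10000 UMIs outside immunoglobulin, mitochondrial and rRNA-like genes, where 248 were higher and 351 lower. Of the 61 genes of the 5 B cell lists, 7 were at least 2-fold higher, none was 2-fold lower, and 55 had a ratio above 0. The list medians were 0.72 for the receptor complex, 0.66 for signalling, 0.51 for transcription factors, 0.36 for antigen presentation and 0.60 for homing and survival, beside 0.11, 0.13, 0.34, 0.29 and 0.05 over the 3, 10, 10, 7 and 10 genes of the same lists that could be compared in T cells. Outside cluster 1, in which 386 of 412 cells came from the library labelled Mir34a_F/F, the medians in the low-immunoglobulin cells were 0.63, 0.41, 0.43, 0.30 and 0.53. Leaving out a cluster that follows the library is not an independent check. Outside cluster 5 the medians were 0.51, 0.43, 0.46, 0.23 and 0.56, and with a pseudocount of 1 they were 0.34, 0.35, 0.35, 0.22 and 0.34. Of 15 genes of the plasma cell program, 13 also had a ratio above 0 and 2 (*Derl3* and *Txndc5*) were over 2-fold higher, with a median of 0.30, beside 0.13 in T cells. That median was -0.03 with summed UMIs, where *Derl3* was at -0.13, and 0.03 outside cluster 3, with none over 2-fold higher in either, and 0.76 with a limit of 2000 on immunoglobulin, where 14 of 16 genes were above 0 and 3 over 2-fold higher. The epithelial markers moved the other way, with 31.9 and 17.2 in the low-immunoglobulin cells, and their part in these ratios was not tested.

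The 7 genes were the receptors *Cr2*, *Fcer2a* and *Tnfrsf13c*, the exchange factor *Ralgps2*, the transcription factor *Spib*, the class II activator *Ciita* and the costimulator *Cd86*. *Cr2* had a level of 0.519 and 1.32, a log2 ratio of 1.35 (1.05 to 1.65), and 0.0105 and 0.00908 in T cells. *Fcer2a* had 0.738 and 1.66, a ratio of 1.17 (0.92 to 1.43). *Tnfrsf13c*, the receptor for the survival factor BAFF, had 0.191 and 0.515, a ratio of 1.43 (0.94 to 1.94). *Ralgps2* had 2.05 and 4.66, a ratio of 1.18 (1.03 to 1.34), beside 0.15 in T cells. *Spib* rested on 42 and 126 UMIs, with a ratio of 1.36 (0.84 to 1.90). *Cd86* had 4.21 and 8.62, a ratio of 1.04 (0.93 to 1.14), beside 0.63 in T cells. *Ciita* had 0.340 and 0.696, a ratio of 1.03 (0.65 to 1.42), and no gene of antigen presentation reached 2-fold outside cluster 1 or with a limit of 2000 on immunoglobulin. Cluster 5, which held 57 of 374 cells in the library labelled Mir34a_Mye_KO and 12 of 664 in the other, had the highest levels of *Cr2*, *Fcer2a* and *Ralgps2* over both libraries together. Within the library labelled Mir34a_F/F, *Fcer2a* was at 1.02 in cluster 5 and 1.12 in cluster 2. Outside cluster 5 the ratios were 0.85 for *Cr2*, 0.95 for *Fcer2a*, 0.92 for *Ralgps2* and 0.74 for *Ciita*, all below 2-fold, while *Tnfrsf13c* (1.05), *Spib* (1.04) and *Cd86* (1.16) were above 2-fold. With a pseudocount of 1, none of the 7 reached 2-fold. *Bank1* (0.91, 0.85 to 0.97), *Mef2c* (0.85, 0.78 to 0.93), *Ighd* (0.91, 0.74 to 1.10) and *Ms4a1* (0.72, 0.55 to 0.88) stayed below 2-fold, and *Syk* (-0.05, -0.17 to 0.06) and *Btk* lay near 0.

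**Figure D5:**
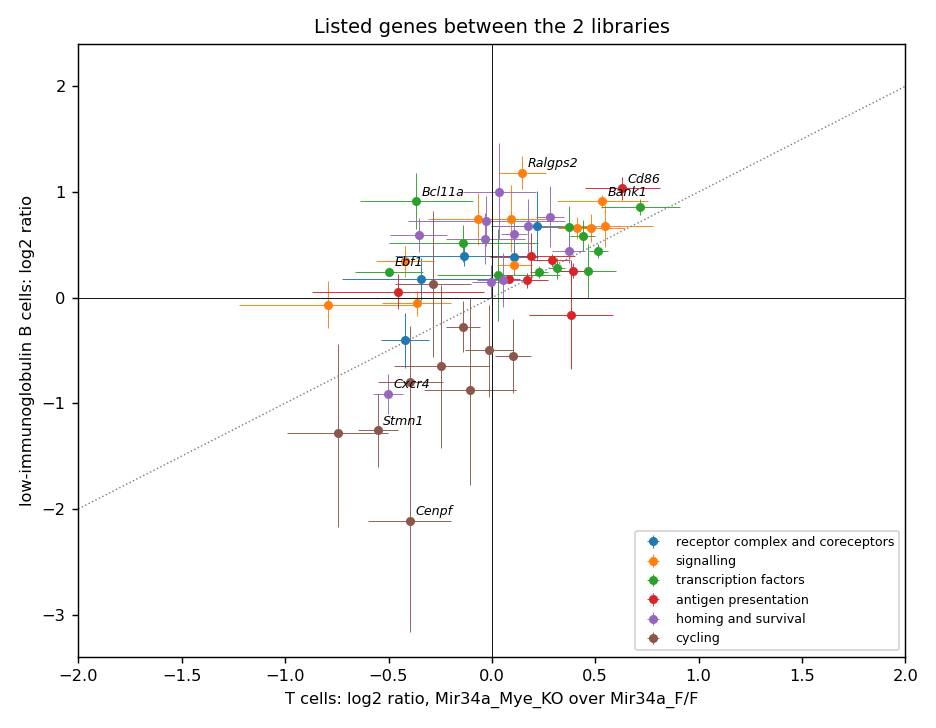
Log2 ratio of levels, library labelled Mir34a_Mye_KO over library labelled Mir34a_F/F, in low-immunoglobulin B cells (vertical axis) and T cells (horizontal axis) for the genes of 6 lists that could be compared in both; bars are 95% intervals from counting alone, and the dotted line marks equal ratios. *Bank1* lies at 0.91 on the vertical and 0.53 on the horizontal axis and *Ralgps2* at 1.18 and 0.15, while *Stmn1* lies at -1.25 and -0.55.

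Cycling genes were lower in the library labelled Mir34a_Mye_KO, where 3 of 10, *Cdk1*, *Cenpf* and *Stmn1*, were at least 2-fold lower, beside 4.9% of all genes. Of the 10, 1 had a ratio above 0, and the median was -0.72, beside -0.29 in T cells. With a pseudocount of 1, none was 2-fold lower and the median was -0.14. With a level of at least 0.5, 3 cycling genes could be compared and 1 was 2-fold lower. *Stmn1* had a level of 0.994 and 0.417, a log2 ratio of -1.25 (-1.60 to -0.91), beside -0.55 in T cells, and *Cenpf* rested on 48 and 12 UMIs. *Cxcr4*, which holds B cells at sources of Cxcl12, had 2.67 and 1.42, a ratio of -0.91 (-1.10 to -0.72), beside -0.50 in T cells. *Tnf* had 0.629 and 0.311, a ratio of -1.01 (-1.40 to -0.63), beside -0.64. *Cd83* was higher, at 4.34 and 9.52, a ratio of 1.13 (1.03 to 1.24), beside 0.78.

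Of the 8 genes with the largest ratios in favor of the library labelled Mir34a_Mye_KO among those seen in at least 25% of cells there, *Hdac9*, a class IIa histone deacetylase, had a level of 0.745 and 2.13, a log2 ratio of 1.51 (1.27 to 1.76), beside -0.08 in T cells. Cluster 3 held part of this, with *Hdac9* at 0.703 and 4.99, and outside cluster 3 the ratio was 1.15. *Fchsd2*, which acts in endocytosis, had 2.26 and 5.77, a ratio of 1.35 (1.21 to 1.5), beside 0.52 in T cells. The calcium channel gene *Cacna1e* had 1.02 and 2.43, a ratio of 1.26 beside 1.69 in T cells, and 0.99 outside cluster 3 and 0.85 outside cluster 1. *Txndc5*, a disulfide isomerase of secretory cells, had 0.457 and 1.10, a ratio of 1.27 (0.93 to 1.61), which came to 0.35 outside cluster 3, and in cluster 3 its level was 0.857 and 4.71. *Gm15564* had 1.57, beside 1.56 in T cells, and *9930111J21Rik2* had 1.25, beside 0.32, and 0.88 (0.37 to 1.42) outside cluster 1. The others were *Cr2* and *Tnfrsf13c*.

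Among the 8 genes with the largest ratios in the other direction were *Gm11808*, *Snhg9*, *Spp1*, *Gm11290*, *Mt3*, *Aspscr1* and *Nupr1*, with log2 ratios from -1.67 to -1.25. *Spp1* (osteopontin) had 1.15 and 0.430, a ratio of -1.42 (-1.77 to -1.08). Outside cluster 1, *Mt3* came to -0.89. In T cells the ratios of these genes ran from -1.51 to -0.87, with -1.31 for *Spp1*. *Spp1*, *Mt3* and *Nupr1* had higher levels in macrophages or epithelial cells, of which the low-immunoglobulin B cells reached 0.138 and 0.120, 0.341 and 0.218, and 0.334 and 0.277. Beside these genes, mitochondrial genes had a median ratio of 0.90 (0.61 in T cells) and ribosomal protein genes of -0.44 (-0.39 in T cells), and the part of depth, mitochondrial share and free RNA in the differences between libraries was not tested.

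The features added to the reference for the targeted locus do not settle the genotype of the libraries. In low-immunoglobulin B cells the feature mir34apri had 6 and 2 UMIs and crenlslyz2 had 2 and 0, too few to compare. In macrophages, which LysM-Cre targets, mir34apri had 133 and 462 UMIs and crenlslyz2 had 451 and 172, and which part of the locus each feature covers is not given in the sources used here. Macrophages held 19470961 and 33225004 UMIs in all, so these sums are not at equal depth. Taken by their names alone, as the primary transcript of *Mir34a* and the Cre, both features ran opposite to the labels. Directions between libraries are therefore given for the libraries as labelled.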

How the data were processed

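CAC cells of 2 genotypes were profiled in 1 library each with 10x 3′ v3.1 chemistry. As the authors describe, Cell Ranger 7.2.0 produced the counts on an mm10 reference, cells were filtered, Scrublet doublets were removed, and LogNormalize was applied. The deposited values are natural logs, taken after adding 1 to the UMIs of a gene scaled to 10000 per cell. Whole UMIs were recovered by exponentiating and scaling to the smallest value of each cell (largest deviation 1.5e-10). Library and cell type of each cell were taken from the deposited annotation. Summed depth of the low-immunoglobulin cells was 2341103 and 2775716 UMIs, so 3 UMIs over the group equal 0.0128 and 0.0108 per 10000.

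A group at 0 UMIs was set to 3 UMIs over the group for ratios. Between libraries, genes past 2-fold with a level of at least 0.1 in either library and at least 10 UMIs over both were counted, without tests. In the comparisons with other cell types and with immunoglobulin-rich cells, these limits had to hold over the compared groups within each library. Intervals of shares are exact binomial, those of UMI sums exact Poisson and those of ratios exact binomial on summed UMIs, moved to the ratio of means. Cells were clustered in scanpy 1.11.5 (2000 variable genes, 20 components, 15 neighbours, Leiden resolution 0.5), without batch correction between the libraries. Promoters came from RefSeq.

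Named genes were those of 14 lists, the 15 with the widest margin over every other type, and 8 per direction by size of ratio between libraries and between the groups of B cells, with mitochondrial, ribosomal, immunoglobulin and rRNA-like genes left out of the last and limits on level (0.5) and share of cells (10% or 25%). Members and lists were chosen with earlier results of these data known. Alternatives were other limits on immunoglobulin, stricter cells, thinning, rescaling, summing, a pseudocount, a higher level limit and, chosen after the data were seen, the stated cell filter and leaving out cluster 1, 3 or 5. Some genes of the lists and of the ranked genes are not reported here by name.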

Additional observations from a re-analysis of the deposited data

Results flagged for a closer look

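For 9 of 147 listed or named genes that passed the limit on level (6.12%), the ratio between the libraries had an interval above 0 in the low-immunoglobulin B cells and below 0 in T cells, or the reverse. Over all genes that passed it, 136 of 9209 (1.48%) had such a pattern. The limit was applied in the low-immunoglobulin B cells only, so some of these genes were near absent in T cells. The difference between the cell types was not tested, and each library is a single sample. As log2 ratios, Mir34a_Mye_KO over Mir34a_F/F as labelled, low-immunoglobulin B cells had 0.34 for *Blnk*, the adaptor behind the B cell receptor, against -0.42 in T cells. The adaptor *Dok3* had 0.51 against -0.54, with levels of 0.0554 and 0.0381 in T cells. The transcription factors *Ebf1* and *Bcl11a* had 0.25 against -0.50 and 0.91 against -0.37. For *Ebf1*, T cells were at a level of 0.322 and 0.228, where the low-immunoglobulin B cells were at 30.0 and 35.6. *H2-DMb2*, of MHC class II, had 0.43 against -0.78, with levels of 0.0378 and 0.0221 in T cells. *Cd55*, which guards cells against complement, had 0.59 against -0.35. The chaperone *Hsp90b1* had 0.30 against -0.12. In the other direction, *Top2a*, a topoisomerase of cycling cells, had -0.55 against 0.10, and *Nfkbia*, the inhibitor of NF-kB, had -0.31 against 0.08.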

How the results depend on the processing

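Of 160 alternative values of the main results, 122 stayed within 1.5 times the count or within counting error. These results are shares, levels and counts, for which no reversal could be called. The immunoglobulin limits of 500 and 2000 moved none. Leaving out cluster 5, done only for subset shares and for counts between libraries, moved none of those. In each of these settings, calls of single listed genes were lost. With a pseudocount of 1, counts came to 26 genes above every other type, 230 higher and 61 lower than in immunoglobulin-rich cells, and 7 higher and 2 lower in the library labelled Mir34a_Mye_KO. With levels of at least 0.5 the last 4 came to 1605, 165, 38 and 47. Per 10000 UMIs outside immunoglobulin, mitochondrial and rRNA-like genes, 790 genes were higher and 803 lower than in immunoglobulin-rich cells and 248 higher in the library labelled Mir34a_Mye_KO. The T cell markers had 0.637 and 0.623 there and the epithelial markers 35.6 and 21.5. Thinned to 1000 UMIs, label markers were seen in 59.97% and 69.6%, *Ighd* in 14.7% and 18.8%, at least 2 cycling genes in 4.91% and 3.23% and at least 2 germinal centre genes in 0.307% and 0.269%. In cells with at least 500 genes and under 10% mitochondrial UMIs, the share of annotated B cells was 68.9% and 36.7%, with label markers in 85.9% and 96.4% and *Ighd* in 32.7% and 70.5%, and epithelial markers had 30.5 and 14.97. In cells with a label marker, *Ighd* was seen in 37.2% and 71.2%, epithelial markers had 30.2 and 15.7 and T cell markers 0.473 and 0.516. Outside cluster 3, label markers were seen in 88.2% and 96.0% and *Ighd* in 34.2% and 70.8%, and epithelial markers had 28.8 and 14.9. Outside cluster 1, at least 2 germinal centre genes were seen in 4.32% and 9.20% and at least 2 cycling genes in 39.9% and 42.5%. For the 43 genes named by the rule, 560 of 810 alternative values stayed within the interval, the others moved and none reversed. These genes were chosen for the size of their ratios, so a reversal was unlikely from the start. The level limit of 0.5 leaves every ratio as it was, so its values are the same by construction. The causes were not tested, except that thinning and higher level limits leave fewer UMIs and genes by construction. No paired analysis was possible because each genotype has 1 library, and for the same reason no replicate could be left out. Depth limits genes under about 0.1 UMIs per 10000 most.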
